A study of Mus musculus with 4 samples.

Results

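Flt3, Kit, Csf1r, Csf2ra, Csf2rb, Csf2rb2, Csf3r and Il3ra encode the receptors through which dendritic cells (DC) and other myeloid cells read hematopoietic growth factors. These 8 genes were taken by name from the 19938 genes that had a probe set with a single gene symbol, and each was read from its brightest such probe set over the 4 arrays. RNA came from freshly sorted splenic Esam DC of 4 mice aged 6 weeks, and each mouse gave 1 array. In the 2 cKO mice (DCRunx3 -/-) floxed Runx3 alleles were deleted by a Cre transgene driven from the CD11c promoter, so that other CD11c-expressing cells can carry the deletion too, and the 2 wt mice (DCRunx3 +/+) were their littermates, with 1 mouse of each genotype in each of 2 litters. The labels give male for all 4 mice and a sort within CD11c+ MHCII+ cells on Esam, CD4 and CD8. The comparison asks which transcripts of these cells differ when Runx3, a transcription factor of the Runt family, is deleted.

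FLT3 and KIT, together with the CSF-1 receptor encoded by Csf1r, belong to the class III receptor tyrosine kinases: a dimeric ligand pairs the receptor chains, which then phosphorylate each other. The receptors for GM-CSF and IL-3 instead join a ligand-specific alpha chain (Csf2ra, Il3ra) to a common beta chain that signals through JAK2 and STAT5, while the G-CSF receptor (Csf3r) is a single chain that pairs with itself. Mice carry a pair of neighbouring beta chain genes, Csf2rb, whose product serves GM-CSF, IL-3 and IL-5, and Csf2rb2, whose product serves IL-3. FLT3 ligand drives DC production from bone marrow progenitors and GM-CSF supports DC in tissues, whereas CSF-1 receptor marks monocytes and macrophages, KIT progenitors and mast cells, and G-CSF receptor neutrophils and their precursors.

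All values are log2 signals normalized between arrays by the authors, and differences are cKO minus wt. A probe set was tested if it reached 6.5, the value the study treated as background, on at least 1 array, which held for 18889 of 35399 probe sets and for 9894 genes. The array medians lay between 6.58 and 6.62. After Benjamini-Hochberg adjustment in limma, 0 probe sets passed 0.05, and the methods' one-way test also gave 0 after that adjustment, while 1771 probe sets had an unadjusted limma p under 0.05. The study's own thresholds, which ask for a fold of 1.5 or more in either direction and a one-way p, without adjustment, up to 0.05, called 267 probe sets, 170 of them higher in cKO. Counted by gene, which is the background for every gene list below, 138 of 9894 genes passed them higher and 45 lower in cKO, 4200 had a positive difference and 5694 a negative one, and the median difference was -0.03. With 2 mice against 2 an exact permutation test cannot give a p below 0.333, so every p below comes from the fits across all probe sets.

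Itgax, Esam and Cd4, which define the sorted cells, lay above 6.5 on all 4 arrays. Itgax, which encodes CD11c, lay at 13.12 and 13.12 in cKO and at 13.01 and 12.99 in wt. Esam lay at 10.60 and 10.64 in cKO, against 10.42 and 10.10 in wt, and Cd4 at 11.98 and 12.09 in cKO, against 11.69 and 11.64 in wt. Cd8a, whose product the gate also used, separated the genotypes, at 10.63 and 10.88 in cKO, against 9.49 and 9.08 in wt (difference 1.46, limma adjusted p = 0.210), and it passed the study's thresholds. The Runx3 probe set lay at 11.47 and 11.45 in cKO and at 11.37 and 11.51 in wt, so it did not separate the genotypes and gives no check of the deletion, and whether it reads the deleted part is unknown. By Western blot the study reports no Runx3 protein in CD4+ DC sorted from mice with this CD11c-driven deletion. Xist was at 12.78 and 12.75 in the cKO and wt mice of litter 1 and at 5.19 and 5.15 in those of litter 2, with Kdm5d reversed, so that the arrays of litter 1 went against the label male while each genotype held 1 mouse of either kind.

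All 8 receptor genes had exactly 1 probe set, and all 8 lay above 6.5 on every array. By the study's thresholds 1 of the 8 was higher in cKO (Csf3r) and 0 were lower, where 1.41% of the tested probe sets passed in either direction and 0.900% were higher. In limma 0 of 8 passed after adjustment (background 0%), and 4 of 8 had an unadjusted p under 0.05, where 9.38% of the tested probe sets did. The arrays of the 2 genotypes did not overlap for 5 genes, 4 higher in cKO and 1 lower, where 40.1% of the tested probe sets were without overlap, 16.4% higher and 23.7% lower. The differences ran both ways, 4 above 0 and 4 below, with a median difference of 0.01, against -0.02 over all tested probe sets. The median size of the difference, regardless of sign, was 0.254 among the receptor genes and 0.112 among all tested probe sets. All 8 differences had the same sign in both litters, but the share of all tested probe sets that did so was not counted. For Flt3 and Csf2ra the difference within litter 2 was near 0 (-0.0061 and -0.0058).

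**Figure D1:**
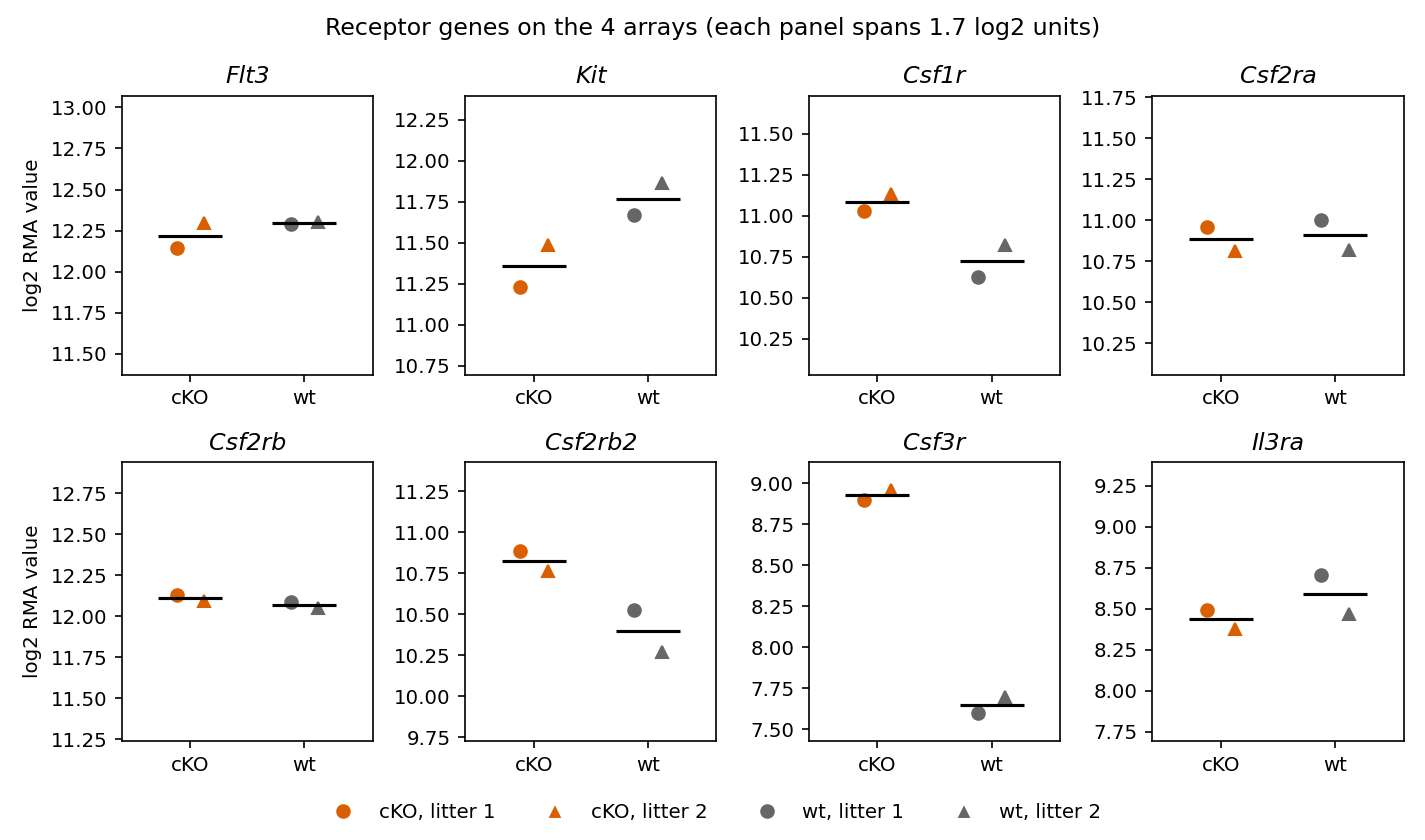
Log2 RMA value (y axis, the same span of log2 units in each panel) of each receptor gene on the 4 arrays, with cKO left of wt, circles for litter 1, triangles for litter 2 and a line at each genotype's mean. Csf3r shows the widest gap, with cKO arrays at 8.90 and 8.96 and wt arrays at 7.60 and 7.70, whereas the arrays of Flt3, Csf2ra and Il3ra overlap.

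Csf3r, the receptor for G-CSF, stood furthest from wt. Its log2 value was 8.90 and 8.96 in the cKO mice, against 7.60 and 7.70 in the wt mice. Both cKO arrays lay far above both wt arrays, and within a genotype the mice were almost alike. The mean was 8.93 ± 0.05 in cKO and 7.65 ± 0.07 in wt (SD, n = 2 each), a difference of 1.28 or 2.43-fold (SE 0.09, 95% interval 1.03 to 1.53, which is 2.05-fold to 2.88-fold). The difference was 1.30 within litter 1 and 1.26 within litter 2, and 99.7% of the tested probe sets differed by less. It passed the study's thresholds but not limma's adjustment over all tested probe sets (adjusted p = 0.158). When only 1 probe set per gene was tested, the limma adjusted p was 0.0345. In bulk RNA of this kind a different number of cells that carry a transcript and a different amount of RNA per cell cannot be told apart.

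Csf3r is among the transcripts that mark the Esam-low subset of CD11b+ DC. The other 8 measured genes of that list, which include the chemokine receptors Cx3cr1 and Ccr2, averaged 10.14 and 10.25 in cKO and 9.60 and 9.60 in wt, with a median difference of 0.69. Of these 8 genes 6 were on average higher in cKO and 2 lower. By the study's thresholds 2 passed higher and 0 lower, and the list was written with earlier results of these data known. Cx3cr1 lay at 9.20 and 9.15 in cKO, against 8.45 and 7.93 in wt, and Ccr2, one of the 2 that passed, at 6.86 and 6.67 in cKO, against 6.18 and 6.03 in wt. Lower in cKO, and named after their values were seen, were Cd300a, at 11.16 and 11.19 in cKO against 11.47 and 11.37 in wt, and Cd209a, at 10.81 and 11.66 in cKO against 11.41 and 11.82 in wt. In blood and marrow Csf3r is best known from neutrophils, though it is not exclusive to them. Of the 12 neutrophil markers 11 lay under 6.5 on all 4 arrays, as did 10044 of the 19938 genes with a probe set. The defining S100a8 was at 5.29 and 5.30 in cKO and at 5.11 and 5.01 in wt, and S100a9 at 5.24 and 5.28 in cKO and at 5.22 and 5.08 in wt. Named after their values were seen, 2 others under 6.5 ran opposite ways. Cxcr2 was at 5.99 and 5.89 in cKO, against 5.59 and 5.11 in wt. Ly6g was at 4.78 and 4.69 in cKO, against 4.87 and 4.86 in wt. Only Mmp9, which DC can express as well, was above that level, and it differed by 0.13 with overlapping arrays. The part of other cells in the Csf3r difference, such as monocytes, whose markers are given below, was not tested.

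The promoter of Csf3r is given here because this gene carried the largest difference, and those of Kit and Csf2rb2 follow as the receptor genes that came next in size. Each is the stretch of 250 bases before a RefSeq transcription start (GRCm38.p6), written 5′ to 3′ on the strand of the gene, with capitals marking GAGGAA, the core of the site bound by the myeloid factor PU.1, or its reverse complement TTCCTC. The Csf3r stretch lies at chr4:126024409-126024658 on the plus strand, and its match covers positions -86 to -81 from the start.
Csf3r: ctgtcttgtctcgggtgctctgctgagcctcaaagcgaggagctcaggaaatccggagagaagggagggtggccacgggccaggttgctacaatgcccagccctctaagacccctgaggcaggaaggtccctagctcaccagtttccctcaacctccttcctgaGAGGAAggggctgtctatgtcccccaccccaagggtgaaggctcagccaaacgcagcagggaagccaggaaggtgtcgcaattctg
The Kit stretch lies at chr5:75574737-75574986 on the plus strand, with the match at positions -223 to -218.
Kit: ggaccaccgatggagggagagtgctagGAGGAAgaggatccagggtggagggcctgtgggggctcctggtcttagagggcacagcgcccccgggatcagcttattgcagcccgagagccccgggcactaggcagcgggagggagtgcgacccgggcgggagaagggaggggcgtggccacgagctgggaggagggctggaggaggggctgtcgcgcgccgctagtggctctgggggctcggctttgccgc
The Csf2rb2 stretch lies at chr15:78305722-78305971 on the minus strand, with the match, on the opposite strand, at positions -167 to -162.
Csf2rb2: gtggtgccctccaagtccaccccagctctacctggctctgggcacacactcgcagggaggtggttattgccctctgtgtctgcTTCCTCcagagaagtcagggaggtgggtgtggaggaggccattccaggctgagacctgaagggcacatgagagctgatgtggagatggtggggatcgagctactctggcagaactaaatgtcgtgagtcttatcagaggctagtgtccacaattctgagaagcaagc
The deposited values were processed on mm9, so these coordinates were used with none of them.

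Such stretches were searched for 6 of the 8 genes. The RUNX motif TGTGGT (reverse complement ACCACA) was in 0 of the 6, where 14.0% of 32851 RefSeq stretches of this length held it on either strand. GAGGAA was in 4 of the 6, namely Csf3r, Kit, Csf2rb2 and Csf2ra, and not in Flt3 or Il3ra, where 23.3% of all stretches held it. TGACGT, the motif of the DC factor zDC (Zbtb46), was in Csf2ra alone, as 2 overlapping matches on opposite strands, where 6.47% of all stretches held it. These letters describe the windows and do not show binding or its absence. Chromatin immunoprecipitation sequencing by the study, in CD4+ splenic DC, found Runx3 at the Flt3 locus. Its bound regions also lay far outside windows of this length.

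Kit, the receptor for stem cell factor, was the receptor gene furthest below wt. It lay at 11.23 and 11.49 in cKO, against 11.67 and 11.86 in wt. The groups did not overlap, but the higher cKO array and the lower wt array were closer to each other than the mice within either genotype were. The mean was 11.36 ± 0.18 in cKO and 11.77 ± 0.14 in wt (SD, n = 2 each), a difference of -0.41 or 1.33-fold (SE 0.14, 95% interval -0.78 to -0.03). Within the litters it was -0.44 and -0.38. The unadjusted limma p was 0.0383 and the adjusted p 0.495, and the fold was below the study's threshold. Of the tested probe sets, 91.8% differed by less. By flow cytometry, which reads protein, the study reports lower Kit in Esam-high DC without Runx3.

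Kit also marks mast cells and early progenitors. Among 10 mast cell and basophil markers 9 lay under 6.5 on all arrays, with the protease genes Cpa3 at 5.16 and 4.95 in cKO and 5.04 and 4.96 in wt, and Mcpt8 at 4.82 and 4.78 in cKO and 4.79 and 4.72 in wt. The exception was Hdc, the histidine decarboxylase that makes histamine, at 6.61 and 7.00 in cKO and 6.16 and 6.38 in wt. Among 8 progenitor genes 4 reached the level for testing, and all 4 were on average higher in cKO, opposite in sign to Kit. Cd34 lay at 8.998 and 8.68 in cKO, against 8.04 and 7.66 in wt, and Sox4 at 7.29 and 7.56 in cKO, against 6.35 and 6.79 in wt. None of the 4 passed the study's thresholds or limma's adjustment.

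Csf1r, which encodes the receptor for CSF-1 and IL-34, lay at 11.03 and 11.13 in cKO, against 10.63 and 10.82 in wt. Both cKO arrays were above both wt arrays, with the wt mouse of litter 1 lowest. The mean was 11.08 ± 0.07 in cKO and 10.73 ± 0.14 in wt (SD, n = 2 each), a difference of 0.36 or 1.28-fold (SE 0.11, 95% interval 0.05 to 0.66). Within the litters it was 0.40 and 0.31. The unadjusted limma p was 0.0306 and the adjusted p 0.476, and 89.0% of the tested probe sets differed by less.

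Markers of the cells for which Csf1r is best known were on average higher in cKO too. The 14 measured macrophage markers averaged 9.83 and 10.00 in cKO, against 8.87 and 9.48 in wt, with all 13 tested ones higher in cKO, 3 of them past the study's thresholds, and a median difference of 0.76. Of the complement genes that mark tissue macrophages, C1qa lay at 8.96 and 8.92 in cKO, against 8.09 and 8.63 in wt, and C1qb at 10.53 and 10.43 in cKO, against 9.64 and 9.66 in wt. The 8 measured markers of blood monocytes averaged 8.59 and 8.75 in cKO, against 8.03 and 8.06 in wt. All 6 tested ones were higher in cKO, 3 past the study's thresholds. Ccr2, among those 3, and Cx3cr1 also belong to the Esam-low list, so the 2 lists are not separate. The part of macrophages and monocytes in the Csf1r difference was not tested.

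**Figure D2:**
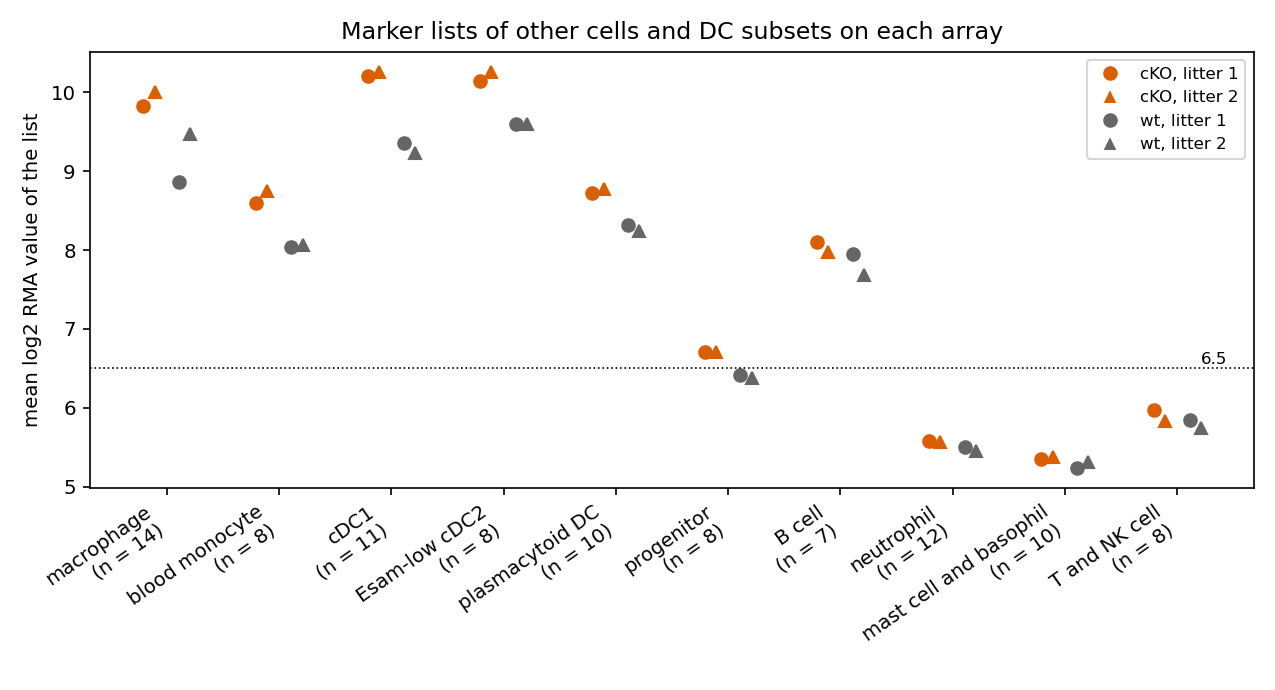
Mean log2 RMA value (y axis) of each marker list on the 4 arrays, with cKO left of wt, circles for litter 1, triangles for litter 2, n the genes with a probe set and a dotted line at 6.5. Every list except that of T and NK cells lies higher on both cKO arrays than on both wt arrays. The neutrophil, the mast cell and basophil, and the T and NK cell lists average under 6.5 on all 4. Csf3r is left out of the Esam-low list.

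The pair of beta chain genes differed from each other. Csf2rb2, the chain for IL-3, lay at 10.89 and 10.76 in cKO, against 10.53 and 10.27 in wt. The groups did not overlap, and the wt mouse of litter 2 was lowest. The mean was 10.82 ± 0.09 in cKO and 10.40 ± 0.18 in wt (SD, n = 2 each), a difference of 0.43 or 1.34-fold (SE 0.13, 95% interval 0.08 to 0.77). Within the litters it was 0.36 and 0.49. The unadjusted limma p was 0.0264 and the adjusted p 0.463, the fold was below the study's threshold, and 92.6% of the tested probe sets differed by less.

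Csf2rb, the common beta chain of GM-CSF, IL-3 and IL-5 signalling, lay at 12.13 and 12.09 in cKO and at 12.09 and 12.05 in wt. All 4 arrays were nearly level. Csf2rb counts among the genes without overlap, but the lower cKO array (12.0889) barely cleared the higher wt array (12.0864). The mean was 12.11 ± 0.03 in cKO and 12.07 ± 0.02 in wt (SD, n = 2 each), a difference of 0.04 or 1.03-fold (SE 0.08, 95% interval 0.878-fold to 1.20-fold, limma adjusted p = 0.932). The difference of Csf2rb2 exceeded that of Csf2rb by 0.32 within litter 1 and by 0.46 within litter 2, which is a description with 1 mouse per genotype in each litter. In RefSeq the genes lie on 1 chromosome with a single microRNA gene between them. As close paralogs they may share signal between their probe sets, which could not be separated in these values.

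The ligand-specific alpha chains that pair with these beta chains did not separate the genotypes. Csf2ra, the alpha chain for GM-CSF, lay at 10.96 and 10.81 in cKO and at 11.00 and 10.82 in wt, a difference of -0.02 (SE 0.12, 95% interval 0.791-fold to 1.22-fold, limma adjusted p = 0.970). Il3ra, the alpha chain for IL-3, lay at 8.49 and 8.38 in cKO and at 8.71 and 8.47 in wt, a difference of -0.15 (SE 0.12, 95% interval 0.715-fold to 1.13-fold, limma adjusted p = 0.787). In both genes the litters were further apart than the genotypes, with litter 1 higher in either genotype, and the arrays of the genotypes overlapped.

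Flt3, the receptor that defines the DC lineage from its progenitors onward, lay at 12.14 and 12.29 in cKO and at 12.29 and 12.30 in wt. Only the cKO mouse of litter 1 was below the other 3. The mean was 12.22 ± 0.11 in cKO and 12.30 ± 0.01 in wt (SD, n = 2 each), a difference of -0.08 (SE 0.10, limma adjusted p = 0.871). Within the litters it was -0.15 and -0.01. The 95% interval of 0.790-fold to 1.14-fold leaves room for a modest difference in either direction. For Esam-high DC the study reports a marked rise of Flt3 after Runx3 loss, measured by RT-qPCR or flow cytometry. These array values do not show such a marked rise, and the reason was not tested.

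**Figure D3:**
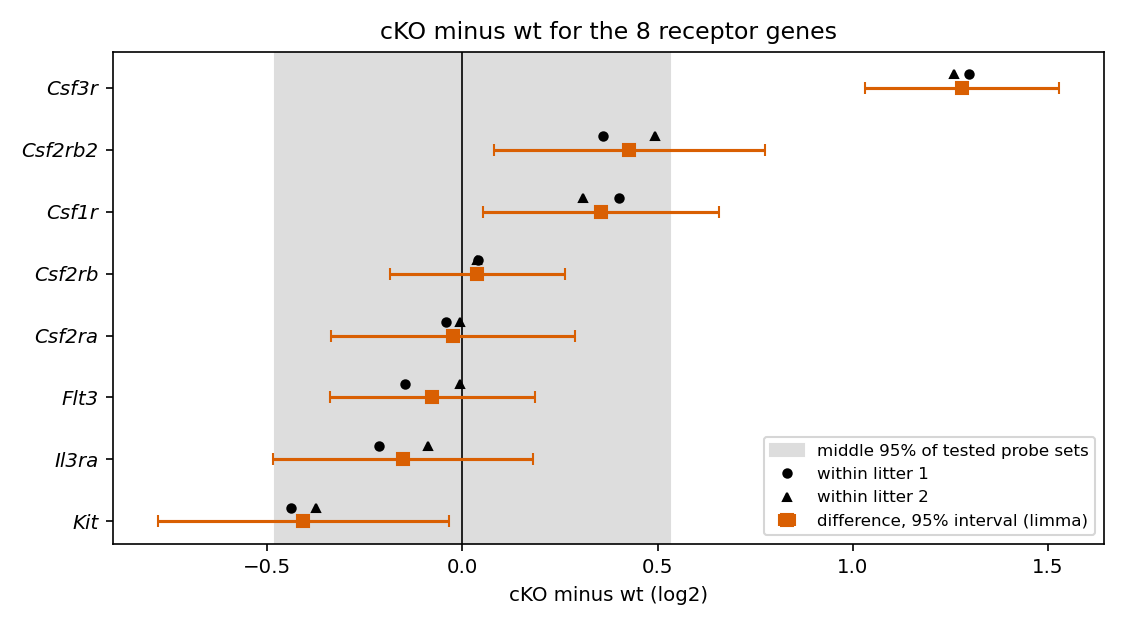
Difference cKO minus wt on the log2 scale (x axis) for each receptor gene, as squares with 95% limma intervals, with circles and triangles for the differences within litters 1 and 2. The grey band spans the middle 95% of all tested probe sets, from -0.48 to 0.53, and Csf3r at 1.28 is the receptor gene outside it.

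Of the 8 ligands of these receptors, only Flt3l was above 6.5 in the sorted cells. Flt3l, which encodes FLT3 ligand, lay at 8.83 and 8.84 in cKO, against 9.02 and 9.10 in wt. The groups did not overlap, with a difference of -0.23 (SE 0.09, limma adjusted p = 0.543). Kitl, Csf1, Il34, Csf2, Csf3, Il3 and Il5 lay under 6.5 on every array, so the ligands of the other receptors were not measurable above that level here.

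Among other cytokine and growth factor receptor chains 10 of 17 could be tested, and 0 passed the study's thresholds in either direction, with 5 higher and 5 lower and a median difference of 0.03. The smallest limma p in this list was that of Tgfbr1, the type I TGF-beta receptor, at 10.75 and 10.86 in cKO, against 10.00 and 10.38 in wt (difference 0.61, SE 0.16, limma adjusted p = 0.414). Next was Il6ra, the IL-6 receptor alpha chain, at 11.89 and 11.96 in cKO, against 11.74 and 11.78 in wt (difference 0.16, limma adjusted p = 0.672).

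No kinase or adaptor downstream of the receptors passed the study's thresholds. Of 40 listed genes 31 were tested, 14 were higher and 17 lower, and the median difference was -0.03. The smallest limma p values were those of Akt2 and Akt1, survival kinases downstream of PI3K, both with a difference of -0.15 (limma adjusted p = 0.673 and 0.688). Outside the rule for named genes and chosen for their role, Jak2 differed by -0.04, Stat5a by 0.08 and Stat5b by 0.12.

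Among negative regulators, such as SOCS proteins, CBL ligases and phosphatases, 18 of 25 were tested, 0 passed the study's thresholds, 4 were higher and 14 lower, and the median difference was -0.05. Ubash3b, a phosphatase that restrains kinase signalling, lay at 8.57 and 8.33 in cKO, against 8.07 and 7.90 in wt (difference 0.46, limma adjusted p = 0.441). Spred1, an inhibitor of the RAS to MAP kinase path, lay at 9.84 and 9.70 in cKO, against 10.08 and 9.96 in wt (difference -0.25, limma adjusted p = 0.573). Neither passed the study's thresholds.

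Genes that respond to STAT5 or growth factor signals passed in both directions. Of 23 listed genes 17 were tested, with 1 higher and 1 lower past the study's thresholds and 15 past neither. Etv5, an ETS factor induced by MAP kinase signalling, lay at 9.90 and 9.65 in cKO, against 8.38 and 8.06 in wt, a difference of 1.56 or 2.95-fold. Myc, the growth regulator, lay at 9.23 and 9.11 in cKO, against 10.44 and 10.30 in wt, a difference of -1.20 or 2.29-fold. In both genes the genotypes were far apart relative to their mice, and in neither did limma's adjusted p pass (0.177 for Etv5 and 0.158 for Myc). Over the list 5 genes were higher and 12 lower, with a median of -0.07.

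Among the transcription factors listed around the receptor genes, 2 of 14 tested were higher past the study's thresholds and 0 lower. That each of them acts on these receptor genes is not shown here. Irf8, a factor of cDC1, plasmacytoid DC and monocytes, lay at 11.32 and 11.38 in cKO, against 10.25 and 10.18 in wt, a difference of 1.13 or 2.19-fold (limma adjusted p = 0.158). Runx1, the paralog of Runx3, lay at 10.86 and 10.92 in cKO, against 10.18 and 10.11 in wt, a difference of 0.75 or 1.68-fold (limma adjusted p = 0.202). Whether either factor has a part in the Csf3r difference was not tested. Outside the rule and chosen for their role, Spi1, which encodes PU.1, differed by -0.20 and Cebpa by 0.19, neither past the study's thresholds.

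**Figure D4:**
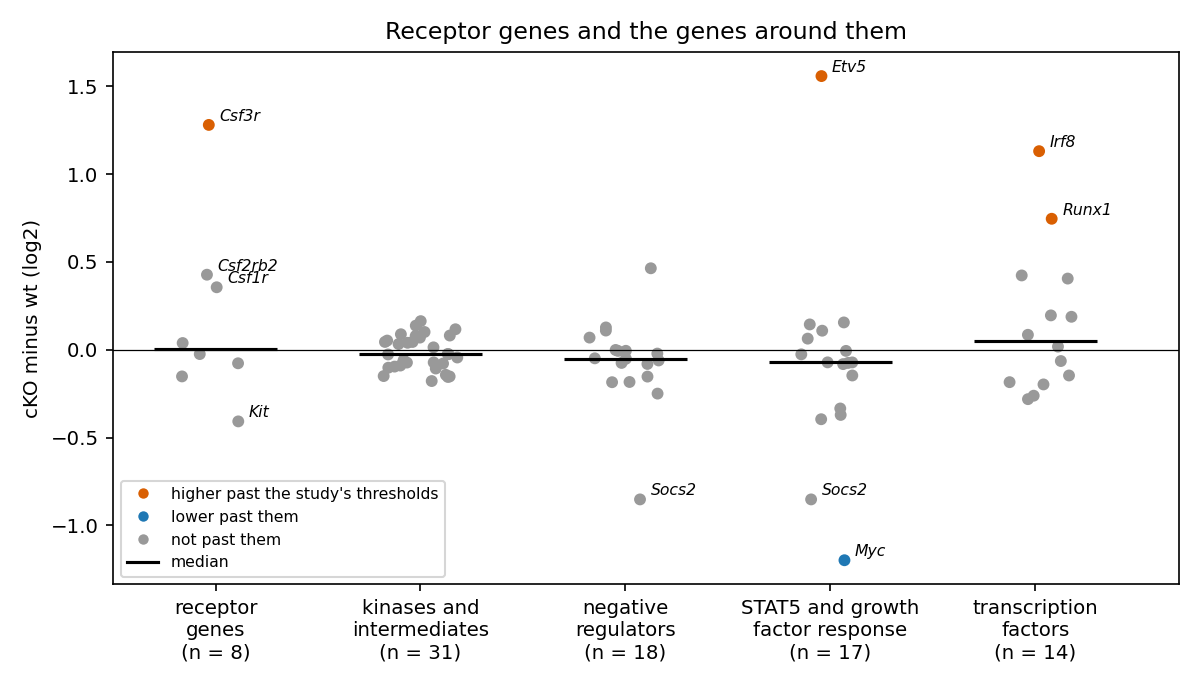
Difference cKO minus wt on the log2 scale (y axis) for each tested gene of the receptor group and of 4 lists around it, with n the genes tested, lines at the medians and colours for the study's thresholds; Socs2 belongs to a pair of lists. Csf3r, Etv5, Irf8 and Runx1 are higher past those thresholds and Myc is lower, while none of the 31 kinases and intermediates passes them.

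Most markers of cDC1, another DC subset, passed the study's thresholds and were higher in cKO. The 11 measured cDC1 markers averaged 10.21 and 10.26 in cKO, against 9.36 and 9.23 in wt, with 9 above wt and 2 below, 8 passing those thresholds and a median difference of 1.23. Irf8, already given among the transcription factors, is among these 8. Xcr1 lay at 11.63 and 11.71 in cKO, against 10.59 and 9.95 in wt, and Clec9a at 11.27 and 11.51 in cKO, against 9.98 and 9.87 in wt. The 2 lower ones, named after their values were seen, were Batf3, at 9.12 and 9.11 in cKO against 9.28 and 9.53 in wt, and Wdfy4, at 12.31 and 12.29 in cKO against 12.55 and 12.63 in wt, neither past the thresholds and both without overlap. The 10 measured markers of plasmacytoid DC averaged 8.72 and 8.78 in cKO, against 8.31 and 8.24 in wt, with 7 of the 9 tested above wt and 2 below, and 1 passed the study's thresholds. Of its defining markers, Siglech lay at 7.19 and 7.51 in cKO, against 6.49 and 7.00 in wt, and Bst2 at 7.62 and 7.97 in cKO and at 7.82 and 8.02 in wt. Their part in the differences of the receptor genes was not tested.

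The 7 measured B cell markers averaged 8.10 and 7.97 in cKO and 7.95 and 7.68 in wt, with Cd79a at 7.56 and 7.69 in cKO, against 7.37 and 7.01 in wt, and 0 past the study's thresholds. The 8 measured T and NK cell markers averaged 5.97 and 5.84 in cKO and 5.85 and 5.74 in wt, with 7 under 6.5 on every array, Cd3e and Cd3g among them. Both measured red cell genes were under 6.5 on all arrays. The 12 genes listed for Esam-high DC averaged 11.23 and 11.28 in cKO and 11.15 and 11.09 in wt, with 7 above wt and 5 below. Not all of them are particular to that subset, as other DC also carry Itgax and Zbtb46. The arrays did not overlap for 7 higher and 4 lower ones, against 1693 higher and 2802 lower of 9894 genes tested. Only Itgam was higher past the study's thresholds, and it encodes CD11b, which Esam-low DC carry too.

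Genes whose 4 values ran closest to those of a receptor gene were found for the 3 receptor genes that spanned at least 1.5-fold, among 9893 other tested genes and over 4 arrays, by the root mean square difference after centring. For Csf3r they were Pxdc1 (0.0220), Plpp1 (0.0667) and P2ry14 (0.0763), and 5 genes lay within 0.1. Pxdc1 lay at 8.57 and 8.64 in cKO, against 7.25 and 7.41 in wt. For Kit they were Fam53b (0.0189), Atf3 (0.0193) and Prss30 (0.0218), with 132 genes within 0.1, and for Csf2rb2 they were Cdk6 (0.0121), Sgk1 (0.0225) and Ceacam1 (0.0235), with 174 within 0.1. With 4 arrays this likeness is a description, and patterns as small as those of Kit and Csf2rb2 were shared by many genes.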

How the data were processed

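RNA of sorted splenic Esam DC from 2 cKO and 2 wt mice was hybridized to 4 Affymetrix mouse ST 1.0 arrays. The authors imported the scans into Partek and deposited log2 values after robust multichip averaging (RMA) with GC correction; the submitters' processing notes name mm9 and no versions. The study's methods name an exon array and the annotation a gene array, so values are read as probe sets. Column names matched the sample titles, and 0 columns were left over. Of 35399 probe sets 21789 had 1 gene symbol in the platform annotation, 1621 several and 11989 none listed; those with 1 symbol were named.

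Probe sets reaching 6.5 on at least 1 array were tested with limma 3.58.1 (lmFit and eBayes, R 4.3.3), two-sided, with Benjamini-Hochberg adjustment over all tested; the study's thresholds (fold of at least 1.5, one-way p of at most 0.05) gave a second call. Standard errors and 95% intervals are limma's, from 2 residual and 2.20 prior degrees of freedom. The mice are separate animals, and their number limits the precision. The labels give the littermate pairs; deviations from the group means correlated within litters (r = 0.27), and the litter entered an alternative fit as a block. The fit was tested on simulated data.

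Named were the receptor genes; from each pathway list the genes past the study's thresholds, at most 6 by p, or else the 2 with the smallest limma p; every ligand; the first markers of each cell type list; and the 3 most alike genes of each receptor gene spanning 1.5-fold. Others are named as chosen for their role or after their values were seen. Receptor genes and lists were chosen with earlier results of these data known. Promoters are the RefSeq windows of 6 receptor genes; matches are exact letters on both strands.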

Additional observations from a re-analysis of the deposited data

How the results depend on the processing

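Each difference was recomputed under 12 alternatives: the litter as a block, no filter, a filter on 2 arrays, the one-way test, an intensity trend, 1 probe set per gene, quantile normalization, median centring, and leaving out each array. Csf3r ranged between 1.23 and 1.33 with limma or one-way adjusted p between 0.0345 and 0.877; it passed only with 1 probe set per gene (1.28, adjusted p = 0.0345), where fewer features were adjusted over. Kit ranged between -0.54 and -0.28, Csf1r between 0.26 and 0.45, Csf2rb2 between 0.30 and 0.56, Csf2rb between 0.02 and 0.06, Flt3 between -0.15 and -0.00 and Il3ra between -0.27 and -0.03, with no change of sign or call. Csf2ra ranged between -0.12 and 0.07 and changed sign without cKO replicate 2 (0.05) and without wt replicate 1 (0.0683). With the litter as a replicate block limma gave adjusted p = 0.252 for Csf3r, 0.366 for Kit, 0.393 for Csf1r and 0.371 for Csf2rb2, and no call changed. Csf3r alone passed the study's thresholds under all 12 alternatives tried for them, among them a fold of at least 2.

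Over all probe sets, limma's count of 0 became 2 with an intensity trend, 42 with 1 probe set per gene and 1 with quantile normalization, and stayed 0 when any array was left out. The 267 past the study's thresholds became 135 with the litter block, 493 with limma's unadjusted p and 88 at a fold of at least 2, and between 112 and 280 without 1 array, whose lone groupmate was assumed to vary like the other genotype. Of the calls 63.7% were higher in cKO, 66.5% after quantile normalization and 62.0% after centring. The mean of several probe sets was not run, as each receptor gene has 1. With 2 mice per genotype, small differences were not measurable.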

Other observations

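Growth factor response genes were also set side by side between the litters, a comparison chosen after their values were seen, and no gene of the list passed the test. Of 17 tested genes 10 were higher in litter 1 than in litter 2 in both genotypes (58.8%), against 3418 of 9894 genes tested (34.5%) and 4 of the 8 receptor genes. Lower in litter 1 in both genotypes were 2 of the 17, Pim3 and Id2, against 2456 of 9894 genes tested. Socs2, a feedback inhibitor of cytokine receptors, lay at 9.42 and 8.90 in cKO and at 10.61 and 9.41 in wt, so that litter 1 exceeded litter 2 by 0.52 in cKO and 1.20 in wt while the genotypes overlapped. Pim1, a STAT5-induced kinase, was higher in litter 1 by 0.51 in cKO and 0.58 in wt, Ccnd2 by 0.33 and 0.78, Osm by 0.26 and 0.43 and Socs3 by 0.24 and 0.45, each with cKO first. In a limma fit with litter and genotype the adjusted p for litter was 0.634 for each of Socs2, Pim1, Ccnd2, Osm and Socs3, and 0 of the 17 passed 0.05, where 4 of 9894 genes tested did. Litter and the split of the arrays by Xist and Kdm5d cannot be told apart.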
